A study of Mus musculus with 24 samples.

Results

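The miRNAs miR-155, miR-146a and miR-146b were followed across 4 groups of mouse cells. They were chosen by assay name, as the 3 assays called mmu-miR-155, mmu-miR-146a and mmu-miR-146b among 584 miRNA assays. That rule used no measured value, but earlier results of these data were known when the 3 were chosen. The levels came from real-time PCR after reverse transcription, on cards A and B of a TaqMan low density array, with 3 replicates per group and 12 replicates in all. CT-BM was primary mouse bone marrow, a mixture of cell types, flushed out of the thigh and shin bones, although the growth protocol given for it describes cells in suspension culture, so the state of the cells measured is not certain. The other groups were L-1210, a lymphocytic leukaemia line of lymphoblast-like cells in suspension, M1, a myeloid leukaemia line of round cells in suspension, and PYS, a teratocarcinoma line that grows as adherent epithelial-like sheets. The lines were collected at passage 3, no treatment was given to any group, and strain and age of the mice are not given in the sources used here. Each line stands for its tumour type alone, and nothing in the labels says that replicates were separate cultures or animals, so the p-values cover the spread between these samples alone, and that spread may be technical.

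These miRNAs belong to the feedback circuits of innate immune signalling. Toll-like receptors and the transcription factor NF-kB raise both miR-155, which is cut from the non-coding RNA once called BIC and represses the brakes Socs1 and Inpp5d (SHIP1), and miR-146a, which represses the receptor adaptors Traf6 and Irak1 and so damps the same pathway. In blood, miR-155 is known from activated B cells, T cells and macrophages and from B-cell tumours, while loss of miR-146a in mice is known to expand myeloid cells. The miRNA miR-146b comes from another gene and is read as a relative of miR-146a because a miRNA recognises its targets mainly through the seed, its bases 2 to 8.

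The mature sequences are shown because the seed decides which of the 3 can share targets, and the 3′ end decides how the miR-146 pair can be told apart by PCR. They are RefSeq sequences placed on GRCm38.p6, written 5′ to 3′ with the seed in capitals, and all 4 names sought were found. The assay names are older ones, taken here as the current 5p strands, and the starred name miR-146b* as the 3p strand.
miR-155: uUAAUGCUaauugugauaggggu
miR-146a: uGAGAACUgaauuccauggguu
miR-146b: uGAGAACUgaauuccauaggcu
miR-146b*: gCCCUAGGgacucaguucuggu
Among 1679 mature mouse miRNA names in that table, miR-146a and miR-146b were the only 2 with the seed GAGAACU, and miR-155 was the only 1 with UAAUGCU. The miR-146 pair was identical at 20 of 22 positions. Counted from 1 at the 5′ end, with the miR-146a base first and the miR-146b base last, the differences were G18A and U21C, both near the 3′ end and outside the seed. Whether either assay also reads its near-identical partner was not tested, so the values of this pair carry that uncertainty.

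The genes lie on different chromosomes. Mir155 is at chr16:84714140-84714204 on the plus strand, within the span of the non-coding RNA gene Mir155hg. Mir146, the gene of miR-146a, is at chr11:43374397-43374461 on the minus strand and overlaps no other gene of the table. Mir146b is at chr19:46342762-46342870 on the plus strand, within the span of the non-coding RNA gene Gm36493. Both strands of the Mir146b hairpin had an assay on the cards, and the hairpin is shown with these strands in capitals, miR-146b first and miR-146b* after the loop.
Mir146b hairpin: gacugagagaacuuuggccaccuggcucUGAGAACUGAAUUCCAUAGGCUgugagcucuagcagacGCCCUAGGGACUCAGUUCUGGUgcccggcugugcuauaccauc

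All 36 wells of the 3 assays amplified, 1 well per replicate and all on card A, between Ct 15.7 and 27.1. Ct is the PCR cycle at which the signal crosses its threshold, and it falls by 1 for each doubling of template. A level here is the negative delta Ct, a log2 scale on which 1 unit is a doubling, relative to the mean Ct of 3 control RNAs (MammU6, snoRNA135, snoRNA202) read in the replicate's own card. Across 8969 wells, 48.3% did not amplify, and a Ct limit of 35 stands for not detected. Read depth does not apply, and the number of replicates limits the precision. The group labels were set beside known marker miRNAs. The blood-wide miR-142-3p had a mean Ct of 17.5 to 17.8 in the 3 blood groups and differed between PYS and CT-BM by -15.39 in log2 level, and all 6 embryonic stem cell markers were detected in every PYS replicate, at mean Ct 15.7 to 20.5. The lymphocyte marker miR-150 came up at Ct 26.3 in L-1210 against 16.6 in CT-BM, so this marker was low in the line labelled lymphocytic.

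The control RNAs moved between groups, and this touches every difference below. On card A the Ct of snoRNA202 minus that in CT-BM was -1.53 for PYS, -2.64 for L-1210 and -2.67 for M1. For MammU6 the same difference was 0.567, 0.74 and -2.17 cycles. The 4 MammU6 wells of M1 replicate 2 on card A spread over 3.23 cycles. The median log2 difference of all tested assays from CT-BM was 0.081 for PYS, -0.82 for L-1210 and -0.59 for M1. With MammU6 as the sole control it was 1.84, 1.05 and -0.014, and with snoRNA202 as the sole control -0.51, -2.47 and -1.03. Differences are therefore also given relative to this median, and as ratios within a card that use no control RNA. A shift of the controls largely cancels in a difference from the median. Its range over scalings is therefore narrow by construction and is no test of the choice of control.

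miR-155, the miRNA induced by immune activation, was higher in both leukaemia lines than in bone marrow and far lower in the teratocarcinoma line. Its level in CT-BM was -6.04, -6.13 and -6.10 in replicates 1 to 3. In L-1210 it was -3.12, -4.27 and -3.71, and in M1 -3.65, -3.69 and -3.70. In PYS it was -13.24, -12.86 and -12.24. Every leukaemia replicate lay above every bone marrow replicate, every PYS replicate lay below them all, and L-1210 had the widest spread, with replicate 2 the lowest. The share of all assays whose levels separate in this way is not given here. Such separation, here and below, is therefore not read as particular to these 3 miRNAs. The order was M1 (-3.68 ± 0.030, SD, n = 3), L-1210 (-3.70 ± 0.574), CT-BM (-6.09 ± 0.048) and PYS (-12.8 ± 0.505).

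**Figure D1:**
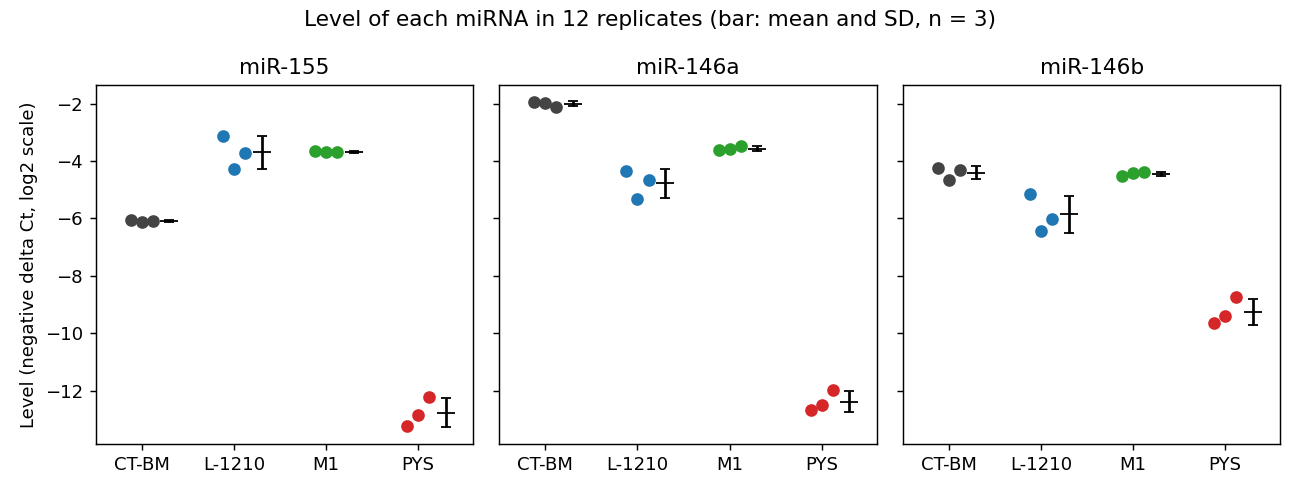
Level of miR-155, miR-146a and miR-146b (vertical axis, negative delta Ct on a log2 scale) in the 3 replicates of each group, with mean and SD. In all 3 panels PYS lies lowest. CT-BM lies below L-1210 and M1 for miR-155 and above both for miR-146a.

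The comparison of each line with CT-BM asks how its miRNA levels differ from those of bone marrow. In L-1210 miR-155 rose 5.25-fold (log2 difference 2.39 ± 0.30, SE, n = 3 against 3, limma with Benjamini-Hochberg over 333 assays, adjusted p = 1.15e-05). In M1 it rose 5.32-fold (2.41 ± 0.30, limma over 325 assays, adjusted p = 1.14e-05). In PYS it fell 103-fold (-6.69 ± 0.30, limma over 362 assays, adjusted p = 1.64e-10). In this fit 38.7% of all tested assays were called lower in PYS, and 22.5% higher in L-1210 and 25.2% in M1, where called means an adjusted p under 0.05 and a change of at least 2-fold, so a call as such was common. With snoRNA202 alone the rise in L-1210 was 0.76 and was not called (limma adjusted p = 0.112), while the rise in M1 and the fall in PYS were called under every scaling. Relative to the median of all tested assays, the miR-155 difference was 3.21 for L-1210, 3.00 for M1 and -6.77 for PYS (log2). Over 8 scalings these values ran from 3.09 to 3.84, from 2.25 to 3.61 and from -7.13 to -6.15, ranges in which the controls largely cancel.

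Between the lines, miR-155 in M1 and L-1210 differed by 0.020 on the log2 scale (95% interval -0.64 to 0.68, limma adjusted p = 0.966), the 1 pair of neighbours in its order not called apart. That result rested on the control RNAs, since miR-155 was lower in M1 with MammU6 alone (-1.54, limma adjusted p = 0.00281) and higher with snoRNA202 alone (1.34, adjusted p = 0.0117). PYS lay 540-fold below L-1210 (-9.08 ± 0.30, adjusted p = 4.9e-12) and 548-fold below M1 (-9.10 ± 0.30, adjusted p = 4.35e-12).

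miR-146a, the feedback inhibitor of Traf6 and Irak1, had its highest level in bone marrow and fell in all 3 lines. Its level in CT-BM was -1.94, -1.96 and -2.10 in replicates 1 to 3. In M1 it was -3.63, -3.59 and -3.47, and in L-1210 -4.34, -5.32 and -4.68. In PYS it was -12.68, -12.49 and -11.99. No groups overlapped, again without a share over all assays to set beside it. The order was CT-BM (-2.00 ± 0.086, SD, n = 3), M1 (-3.56 ± 0.086), L-1210 (-4.78 ± 0.495) and PYS (-12.4 ± 0.358).

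Against CT-BM, miR-146a fell 6.85-fold in L-1210 (log2 difference -2.78 ± 0.26, SE, limma adjusted p = 6.53e-07). It fell 2.95-fold in M1 (-1.56 ± 0.26, adjusted p = 0.000147) and 1340-fold in PYS (-10.39 ± 0.27, adjusted p = 5.97e-13). Among all tested assays, 45.6% were called lower in L-1210 and 44.3% in M1. The fall in M1 was not called with quantile scaling (-0.57, limma adjusted p = 0.162), while the falls in L-1210 and PYS were called under every scaling. Relative to the median of all tested assays the miR-146a difference was -1.95 for L-1210, -0.97 for M1 and -10.47 for PYS (log2). Over 8 scalings these values ran from -2.08 to -1.32, from -1.36 to -0.36 and from -10.72 to -9.85.

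The level of miR-146a was 2.32-fold higher in M1 than in L-1210 (1.21 ± 0.26, limma over 306 assays, adjusted p = 0.00133), where 30.7% of assays were called higher in M1. Without L-1210 replicate 2 this difference was 0.95, under the 2-fold minimum, so the call ended, and with MammU6 alone it turned to -0.34 (adjusted p = 0.455). PYS lay 195-fold below L-1210 (-7.61 ± 0.27, limma over 351 assays, adjusted p = 7.44e-12) and 453-fold below M1 (-8.82 ± 0.27, limma over 341 assays, adjusted p = 1.49e-12). In these comparisons 27.6% and 27.3% of all tested assays were called lower in PYS.

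miR-146b, which shares the miR-146a seed, was lower in PYS than in every other group, with smaller differences there than miR-155 and miR-146a. Its level in CT-BM was -4.25, -4.67 and -4.32 in replicates 1 to 3, and in M1 -4.54, -4.43 and -4.38. In L-1210 it was -5.14, -6.43 and -6.02, and in PYS -9.64, -9.42 and -8.75. CT-BM and M1 overlapped, L-1210 lay below both, and PYS lay below all other replicates. The order was CT-BM (-4.41 ± 0.227, SD, n = 3), M1 (-4.45 ± 0.079), L-1210 (-5.86 ± 0.657) and PYS (-9.27 ± 0.462).

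The difference of miR-146b between M1 and CT-BM was -0.040 (95% interval -0.75 to 0.67, limma adjusted p = 0.91), so these neighbours were not called apart. In L-1210 miR-146b fell 2.74-fold against CT-BM (-1.45 ± 0.32, adjusted p = 0.0013). That fall turned to 0.29 with MammU6 alone (limma adjusted p = 0.496) and was not called with the mean of common assays (-0.33) or quantiles (-0.66). In PYS miR-146b fell 29.0-fold (-4.86 ± 0.32, adjusted p = 1.01e-08), a call kept under every scaling. Relative to the median of all tested assays the miR-146b difference was -0.63 for L-1210 (-1.002 to 0.00 over 8 scalings), 0.55 for M1 (-0.077 to 1.16) and -4.94 for PYS (-5.19 to -4.32). It was 2.66-fold higher in M1 than in L-1210 (1.41 ± 0.32, limma adjusted p = 0.00195), but -0.14 with MammU6 alone and not called with the mean of common assays (0.84). PYS lay 10.6-fold below L-1210 (-3.41 ± 0.32, adjusted p = 3.9e-07) and 28.2-fold below M1 (-4.82 ± 0.32, adjusted p = 9.48e-09).

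**Figure D2:**
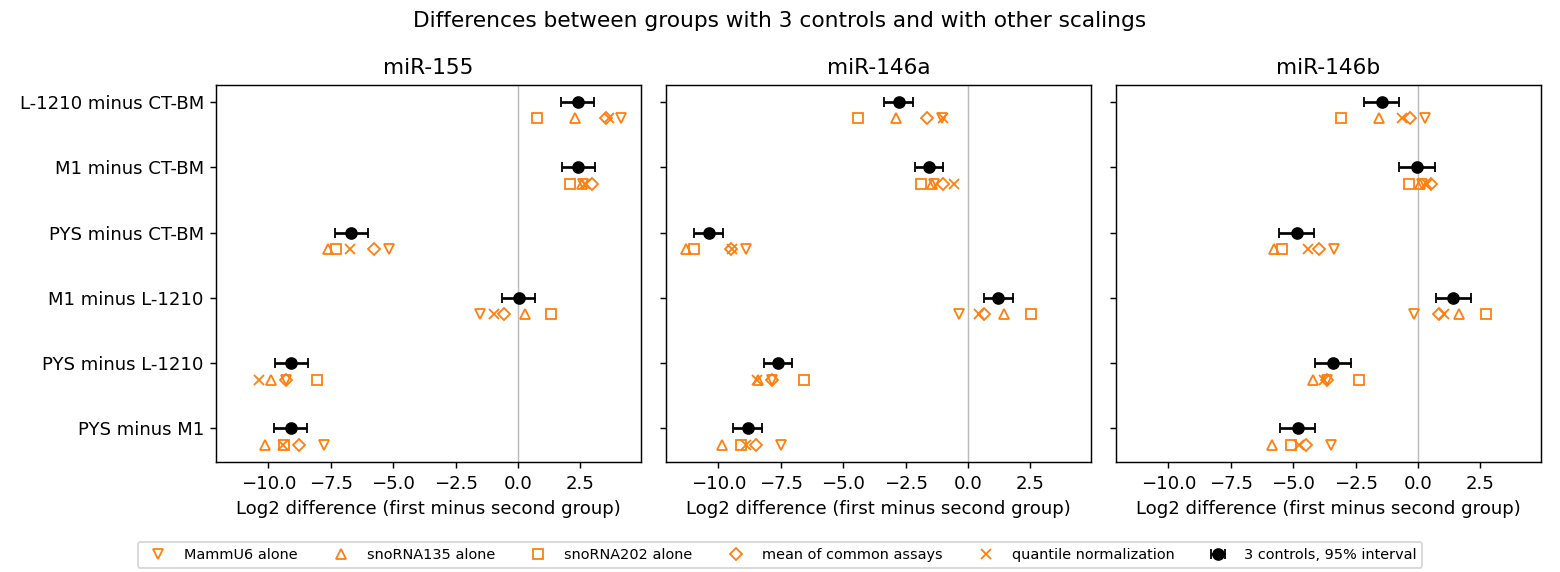
Log2 difference of each miRNA (horizontal axis) in the 6 comparisons, first group minus second, with the 3 controls (black, with 95% interval of the limma fit) and with 5 other scalings (orange). All comparisons with PYS lie far below 0 under each scaling shown, while M1 minus L-1210 crosses 0 for all 3 miRNAs.

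Of the 18 differences (3 miRNAs in 6 comparisons), 16 were called, and all 9 with PYS were called lower. Over all tested assays 55.9% to 78.5% were called in either direction, and 38.7%, 27.6% and 27.3% were called lower in PYS against CT-BM, L-1210 and M1, so calls were common beyond these 3. In bulk RNA of mixed cells such as bone marrow, fewer cells that make a miRNA and less of it per cell cannot be told apart. The log2 difference of PYS from CT-BM was -18.81 for the granulocyte miRNA miR-223 and -15.39 for the blood-wide miR-142-3p. It was -9.41 for lymphocyte miR-150 and -7.58 for erythroid miR-451, while lymphocyte miR-342-3p was not called (-0.28), so the blood markers did not all fall. Blood-wide miR-142-5p and erythroid miR-486 were not detected in PYS. These values stand beside -10.39 for miR-146a, -6.69 for miR-155 and -4.86 for miR-146b. All 3 were still detected in every PYS replicate, at mean Ct 26.6 for miR-155, 26.3 for miR-146a and 23.1 for miR-146b. Whether loss of blood cell types has a part in the differences from CT-BM was not tested.

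The place of an assay among all those detected on card A in the same replicate uses no control RNA. Ranked from the earliest Ct, miR-155 was 41st to 45th of 192 to 199 detected assays in CT-BM, 9th to 15th of 175 to 187 in L-1210, 15th to 18th of 160 to 166 in M1 and 144th to 159th of 200 to 204 in PYS. For miR-146a the places were 12th to 13th in CT-BM, 14th to 25th in L-1210, 14th to 17th in M1 and 139th to 151st in PYS. For miR-146b they were 22nd to 27th, 22nd to 41st, 19th to 21st and 78th to 90th. So the rise of miR-155 in both leukaemia lines and the fall of all 3 in PYS were also seen as a change of place, whereas miR-146b kept overlapping places in CT-BM and L-1210. For miR-146a the change of place in the leukaemia lines was small. The mean share of detected assays with a later Ct was 94.2% in CT-BM, 91.0% in M1 and 90.3% in L-1210. A rank depends on how efficient each assay is, so places are compared between groups for 1 miRNA and not between miRNAs.

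**Figure D3:**
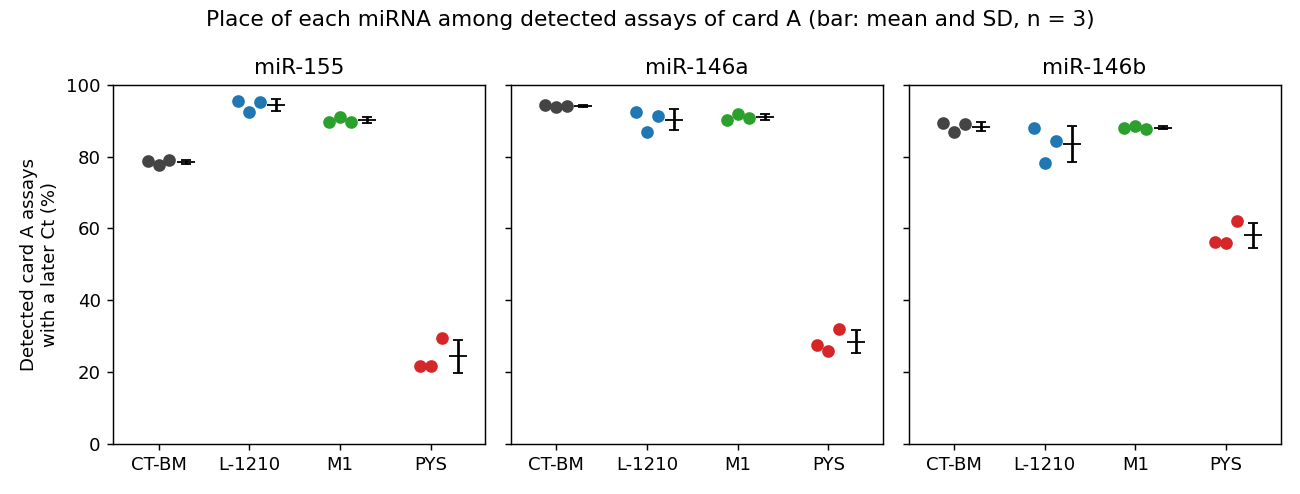
Percent of detected card A assays with a later Ct than each miRNA (vertical axis, higher is earlier) in each replicate, with mean and SD. For miR-155 the mean is 24.3% in PYS against 78.5% in CT-BM, 90.2% in M1 and 94.3% in L-1210.

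The 3 assays share card A, so in a ratio of any 2 of them the controls and the amount of input RNA cancel. The ratio of miR-155 to miR-146a separated bone marrow from all 3 lines. As a difference in Ct (log2) it was -4.10, -4.18 and -4.00 in CT-BM, 1.22, 1.05 and 0.97 in L-1210, -0.014, -0.10 and -0.23 in M1 and -0.56, -0.36 and -0.25 in PYS. The zero of this scale has no meaning of its own, since the assays can differ in efficiency, but the differences between groups do not depend on it if each assay keeps its efficiency. The ratio was 36.0-fold higher in L-1210 than in CT-BM (difference 5.17 ± 0.09, SE), 15.7-fold in M1 (3.97 ± 0.08) and 13.0-fold in PYS (3.70 ± 0.10). The ratio in PYS was thus close to that in M1 (difference -0.27 ± 0.11), although miR-155 was 548-fold and miR-146a 453-fold lower in PYS.

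The ratio of miR-146a to miR-146b also moved. It was 2.30, 2.71 and 2.22 in CT-BM, 0.80, 1.11 and 1.34 in L-1210, 0.91, 0.83 and 0.92 in M1 and -3.04, -3.08 and -3.24 in PYS. L-1210 and M1 overlapped, with a difference of -0.20 ± 0.16 (exact two-sided permutation p = 0.4). Relative to CT-BM the ratio was 2.51-fold lower in L-1210, 2.87-fold lower in M1 and 46.2-fold lower in PYS, so the miR-146 pair, alike in seed, shifted towards miR-146b in every line.

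The ratio of miR-155 to miR-146b was highest in L-1210 (2.16 ± 0.146, SD, n = 3) and lowest in PYS (-3.51 ± 0.083), with 0.77 ± 0.109 in M1 and -1.68 ± 0.186 in CT-BM. Of the 18 ratio comparisons (3 ratios in 6 pairs of groups), 17 had groups without overlap. Each of these had p = 0.1 in the exact permutation test (two-sided), which 3 against 3 replicates cannot go below, and the adjusted p over the 18 was 0.106, so this test cannot pass 0.05 in this design. Such separation was common among the 7021 pairs of card A assays detected in all 12 replicates. For them the share without overlap was 75.3% in L-1210 against CT-BM, 76.9% in M1 and 87.7% in PYS against CT-BM, 66.2% in M1 against L-1210, and 78.6% and 85.5% in PYS against L-1210 and M1.

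**Figure D4:**
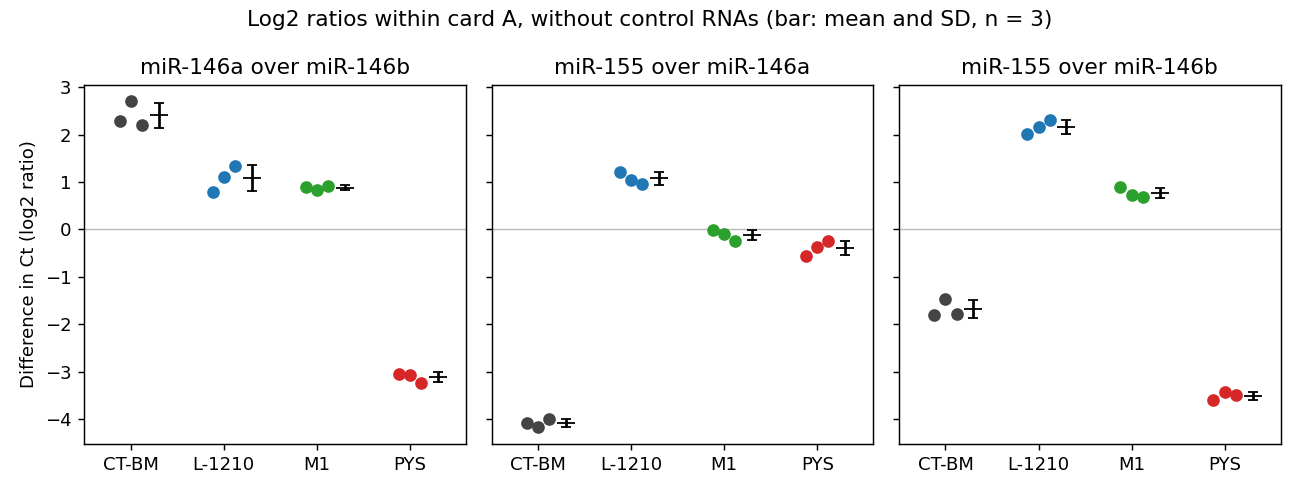
Log2 ratios between the 3 miRNAs within card A (vertical axis, difference in Ct) in each replicate, with mean and SD. CT-BM stands alone at -4.09 in the ratio of miR-155 to miR-146a, and PYS stands alone at -3.12 in the ratio of miR-146a to miR-146b.

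The cards held 1 further assay of these hairpins, miR-146b*, on card B. It amplified in M1 replicates 1 to 3, at levels of -13.95, -14.46 and -13.94 on the negative delta Ct scale, and in none of the wells of CT-BM, PYS or L-1210, where L-1210 replicate 3 has no well in the table. Its level in M1 was at least 105-fold higher than in CT-BM, at least 256-fold higher than in L-1210 (2 replicates) and at least 249-fold higher than in PYS, all bounds at the Ct limit of 35. No test is given, since this assay passed the detection filter through M1 alone and the other groups hold the limit in place of a measured Ct. With a Ct limit of 32 the log2 bound against CT-BM was 3.72 in place of 6.72. In CT-BM the strand miR-146b from the same hairpin had about the M1 level. That assay is on card A with its own control wells, and miR-146b* holds the limit in CT-BM. Whether the strands of Mir146b differ in pattern over these 2 groups was not tested. No assay for the other strand of miR-155 or miR-146a was in the table used here.

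Other miRNAs known from Toll-like receptor, NF-kB or leukocyte activation signalling were read from a list of 18 names, of which 17 were on the cards. In L-1210 against CT-BM, 3 of 16 tested were called higher, 9 lower and 4 neither, with a median log2 difference of -5.77 against -0.82 over all tested assays. In M1 the counts were 4, 7 and 5 of 16 (median -0.050 against -0.59), and in PYS 5, 10 and 2 of 17 (median -2.78 against 0.081). The L-1210 median fell in a gap between miR-210 (-2.90) and miR-147 (-8.64, a bound at the Ct limit), with no list member near it. Such bounds made up 4 of the L-1210 values, 2 of the M1 values and 3 of the PYS values. Over all tested assays 68.2%, 69.5% and 78.5% were called in either direction in these comparisons, and in PYS against CT-BM 39.8% were called higher. With MammU6 alone 7 were called higher in L-1210, but the median over all tested assays was then 1.05. The share of all assays called higher with that control is not given here, so this count is not read as particular to the list.

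Within that list, among members tested in all 3 lines, miR-132, an endotoxin-induced miRNA, and the strands miR-9 and miR-9* rose in all 3 lines against CT-BM, where miR-9* has a value in 2 replicates. Over 5 other scalings miR-9 kept these calls, while miR-9* in PYS ran from 0.64 to 3.57 and was called in 3 of 5, and miR-132 in L-1210 ran from 0.84 to 4.22 and was called in 4 of 5. The rise of miR-132 in L-1210 was 2.47 ± 0.31 (SE, log2 difference), near that of miR-155, but in PYS miR-132 rose by 3.59 ± 0.31 where miR-155 fell. With the 3 controls the inflammation-linked miR-21 was not called in any comparison (differences -0.63 for PYS, -0.13 for L-1210 and -0.29 for M1), although single scalings moved it to either side of 0, from -1.76 to 1.61 in L-1210, where 3 of 5 scalings left it uncalled and the others called it. The same 3 of 5 applied to M1 against L-1210 and to PYS against CT-BM and L-1210, with 4 of 5 for PYS against M1 and 5 of 5 for M1 against CT-BM. The endotoxin-induced miR-147 was lower in PYS (-3.18) and not detected in L-1210 or M1. The related pair miR-125a-5p and miR-125b-5p, repressors of the NF-kB inhibitor Tnfaip3, fell in L-1210 (-11.37 and -9.75) and in M1 (-11.51 and -11.40), while in PYS miR-125b-5p also fell (-4.21) and miR-125a-5p was not called (0.081). Both came up late, at mean Ct 30.8 and 32.6 in L-1210 and 29.6 and 32.9 in M1, where miR-125b-5p has 2 replicates. Over 5 other scalings their falls in M1 stayed called but ran from -11.82 to -6.96 and from -11.89 to -4.86. The neighbours miR-29a and miR-29b were not called in L-1210 or M1 and were lower in PYS (-5.67 and -2.78). Across the same scalings the missing calls did not hold throughout. In L-1210 miR-29b ran from -1.32 to 3.19 and was left uncalled in 1 of 5, and miR-29a ran from -1.96 to 1.41 and was left uncalled in 3 of 5. In M1 miR-29b ran from 0.37 to 3.87 and was left uncalled in 3 of 5, miR-29a was left uncalled in 5 of 5, and the fall of miR-29b in PYS was called in 4 of 5.

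**Figure D5:**
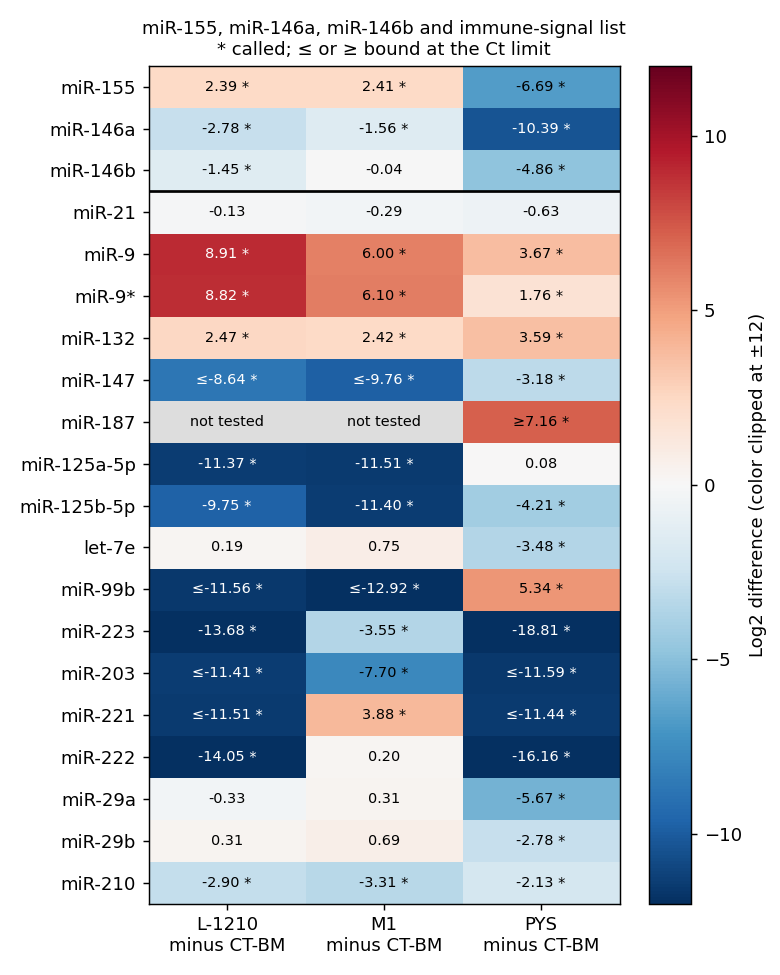
Log2 difference against CT-BM (color, with the value printed) of the 3 miRNAs, above the line, and of the 17 list members on the cards, below it, in L-1210, M1 and PYS. Stars mark calls with the 3 controls. With these, miR-155 is the only row shown with a call of higher in both L-1210 and M1 and of lower in PYS. This depends on the scaling, since miR-155 in L-1210 was not called with snoRNA202 alone. Over 5 other scalings let-7e, lower in PYS, ran from -1.445 to 1.932 in L-1210 (uncalled in 1 of 5) and from 0.433 to 1.309 in M1 (uncalled in 3 of 5). Likewise miR-29b, called lower in PYS in 4 of 5, ran from -1.321 to 3.192 in L-1210 (uncalled in 1 of 5) and from 0.369 to 3.868 in M1 (uncalled in 3 of 5). The share of all assays with this pattern is not given here, so it is not read as particular to miR-155.

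The remaining comparisons gave, for the same list, 4 of 14 higher and 3 lower in M1 against L-1210, where 55.9% of all tested assays were called. In PYS 6 of 15 were higher and 7 lower against L-1210 (45.9% of all tested higher, 27.6% lower, 73.5% called). Against M1, 7 of 17 were higher and 9 lower in PYS (46.0% of all tested higher, 27.3% lower, 73.3% called). The 7 list members lower in PYS than in L-1210 were miR-9*, miR-29a, miR-9, miR-223, let-7e, miR-29b and miR-222, with differences from -7.07 (miR-9*) to -2.11 (miR-222). The 6 higher in PYS were miR-99b (at least 16.9), miR-125a-5p (11.45), miR-187 (at least 8.16), miR-125b-5p (5.54), miR-147 (at least 5.46) and miR-132 (1.12).

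The miRNAs most like each of the 3 in pattern were found by Pearson correlation of the level over the 12 replicates. The candidates were 258 other mouse-named assays with a value in every replicate and detected in every replicate of at least 1 group. The replicates share groups, controls and cards, so these correlations are a description. For miR-155 the nearest was miR-181a-1* (r = 0.974), which was detected in 9 of 12 replicates and has the Ct limit in place of a Ct in PYS, followed by miR-29a (0.955), miR-29a* (0.954), let-7g (0.936) and let-7d (0.935). Their centred group means lay up to 1.96 (miR-29a) to 3.96 (miR-29a*) from those of miR-155. For miR-146a the nearest was miR-181c (0.993, largest difference 0.835), which was not detected in PYS, then miR-322 (0.988), blood-wide miR-142-5p (0.983, also not detected in PYS), miR-146b (0.98) and let-7g (0.98). For miR-146b the nearest was miR-146a (0.98), but with group means up to 3.44 apart, while miR-503* (r = 0.976) and miR-322* (0.977), which followed miR-146a and preceded miR-191 and miR-181c in the ranking, stayed within 0.406 and 0.622. The correlation of miR-155 with miR-146a was 0.877 and with miR-146b 0.879, in places 15 and 14 of 258.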

How the data were processed

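Per the labels' protocols, the authors reverse transcribed and preamplified total RNA, and the PCR ran for 40 cycles on cards A and B (Applied Biosystems 7900HT). Per the file headers, the deposited table holds the Ct of each well in PCR cycles, with automatic baseline and threshold and not normalized to controls. Software version and detection limit are not given in the sources used here. It held 8969 wells in 24 card runs, 367 to 380 each, and 0 columns of values were left unused. Each replicate title stands on 2 GEO samples, 1 per card, and which is which is not given, so rows were used by group, replicate number and card. For 3543 of 3543 deposited Ct Avg values the wells' mean lay within 0.001 cycles.

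Wells were averaged per assay and card, and wells without a Ct, or with one over 35, were given 35. Levels as negative delta Ct entered 1 linear model per assay (4 group means, 12 replicates, 584 assays of both cards), with lmFit and eBayes of limma 3.58.1 under R 4.3.3, a step tested on simulated data. Assays with every replicate of at least 1 of the 2 groups detected were tested, with Benjamini-Hochberg adjustment over them. Python 3.11.15, pandas 2.3.3, numpy 2.4.6, SciPy 1.17.1 and matplotlib 3.10.9 served for tables, exact tests and figures. The text names the 3 members, other assays of their hairpins, members of the immune-signal and marker lists, and the 5 assays most like each member. Alternatives were other control RNAs and scalings, Ct limits, filters, fits, a replicate block and each replicate left out. The 5 controls of both cards and card A alone were added after seeing the data. The members and lists were chosen with earlier results of these data known.

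Replicate numbers are shared by the groups. Correlations of same-numbered deviations from group means, over 187 assays, ran from -0.453 to 0.334 and exceeded 0.1 in 3 of 18 pairs, so the numbers were not taken to pair samples. No replicates of a group had identical Ct values.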

Additional observations from a re-analysis of the deposited data

Results flagged for a closer look

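The effect of a line against CT-BM ran in opposite directions for miR-155. It was 2.39 in L-1210 and -6.69 in PYS (log2), and the direct test of PYS against L-1210 gave -9.08 ± 0.30 (SE, limma adjusted p = 4.9e-12). It was 2.41 in M1, and the direct test of PYS against M1 gave -9.10 ± 0.30 (adjusted p = 4.35e-12). All 3 replicates of each leukaemia line lay above, and all 3 of PYS below, every CT-BM replicate, a separation whose share over all assays is not given here. These comparisons share the CT-BM replicates.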

How the results depend on the processing

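Of the 18 differences, 11 kept their direction and side of the threshold under all 16 alternatives and every replicate left out, including all 9 with PYS. Differences are log2. The choice of control decided most of the rest. Other Ct limits, filters and fits, the replicate block and card A alone left the log2 differences of the 3 miRNAs unchanged. Under those settings only the adjusted p could move. The same holds for leaving out a replicate of a group not compared. For M1 minus L-1210, MammU6 alone gave -1.54 for miR-155, -0.34 for miR-146a and -0.14 for miR-146b. Scaling on assays common to all replicates gave -0.55, 0.65 and 0.84 there, quantiles -0.96 and 0.44 for the first 2, snoRNA202 alone 1.34 for miR-155, and the median of wells -0.011. For L-1210 minus CT-BM, snoRNA202 alone gave 0.76 for miR-155, and miR-146b was 0.29 for MammU6, -0.33 for common assays and -0.66 for quantiles. For M1 minus CT-BM, miR-146a was -0.57 with quantiles, and miR-146b, near 0 throughout, was 0.15 for MammU6, 0.091 for snoRNA135, 0.52 for common assays and 0.36 for quantiles. Leaving out 1 replicate, M1 minus L-1210 ran from -0.26 to 0.31 for miR-155 and from 0.95 to 1.43 for miR-146a, its lowest values without L-1210 replicate 2, and miR-146b in M1 minus CT-BM from -0.17 to 0.043. The 18 ratio differences kept their direction with each replicate left out. Other Ct limits could not change them, since every Ct of the 3 miRNAs lay below those limits, and no control enters them. Of the list, 7 were higher in L-1210 minus CT-BM for MammU6 and 5 for common assays or quantiles, in place of 3. In M1 minus L-1210, 6 were lower with MammU6 alone in place of 3, and 9 higher with snoRNA202 alone in place of 4, and in PYS minus M1 4 were higher with quantiles in place of 7. The median over all tested assays moved as well. In M1 minus L-1210 it was -1.23 with MammU6 alone and 1.33 with snoRNA202 alone, in place of 0.16. These counts are therefore not read as particular to the list. The replicate block changed no call of the 3 miRNAs (miR-155 in L-1210 minus CT-BM 2.39, adjusted p = 5.44e-05), and 229 assays were then called in that comparison in place of 227. Counts of all calls moved by over 1.5 times with fewer or more assays tested. Detection in all 12 replicates gave 98, 103, 124, 87, 120 and 115 in place of 227, 226, 284, 171, 258 and 250, no filter gave 473, 487, 349 and 401 in place of 227, 226, 171 and 250, and card A alone gave 148 and 110 in place of 226 and 171. Precision is limited by 3 replicates per group, with the widest SD of level in L-1210 for all 3 miRNAs, and which control RNA is stable was not tested.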
